A study of Mus musculus with 24 samples.

Results

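The genes of the p53 pathway, 39 of the 14106 genes in a table of RNA counts from mouse B cells, were described in cells depleted of Spt5 and in control cells. They were chosen by name: Trp53, which encodes p53, the regulators of its stability and activity, and targets of p53 in cell cycle arrest, apoptosis, DNA repair and metabolism. Each of the 39 had a row in the table. Of these, 38 passed the filter on low counts and were tested, and Gdf15 did not pass.

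p53 is a transcription factor that is held at a low level by the ubiquitin ligase Mdm2 and kept inactive by Mdm2 and its relative Mdm4. DNA damage and other stresses release p53 from both, and it then induces genes that stop the cell cycle, repair DNA or start apoptosis. Mdm2 is itself a p53 target, which closes a negative feedback loop. In B lymphocytes, p53 responds to DNA breaks such as those made during class switching, and its loss favours lymphoma. Much of its control lies in protein stability and modification, which RNA counts do not measure.

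Spt5 belongs to DSIF, which travels with RNA polymerase II and acts in pausing and elongation. The Spt5-depleted cells were splenic B lymphocytes of the genotype Supt5hFl/- Rosa26ERT2-cre/+, in which 1 allele of the Spt5 gene is floxed and the other is null. The control cells, called WT here, were Rosa26ERT2-cre/+ and carried neither of these alleles. In both, Cre recombinase fused to a tamoxifen-responsive receptor was expressed from the Rosa26 locus, which is active in most cell types. Both were activated in culture with LPS and IL4 for 28 h and then received 2 µM 4-hydroxytamoxifen for 32 h, so both carried active Cre. One label field calls the cells mature and another calls them immature. Poly(A) RNA from 3 libraries of each group was counted by gene. The labels do not say whether libraries came from separate mice, so p-values measure only how far these libraries spread, and that spread may be technical.

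The libraries held 17306549 to 21441575 counts in Spt5-depleted cells and 23340978 to 25649611 counts in WT cells. Levels are given as CPM, counts scaled to a common library size corrected by edgeR's TMM factors, and changes as the log2 fold change of Spt5-depleted over WT cells, with its standard error. A gene was called at an adjusted p under 0.05 (edgeR's quasi-likelihood test with Benjamini-Hochberg adjustment over 12024 genes). CPM is not corrected for transcript length, so levels of different genes were not compared. Supt5, the depleted gene, had 10.5, 9.18 and 13.6 CPM in Spt5-depleted cells, against 159.8, 159.5 and 192 CPM in WT cells (log2 fold change -3.94 ± 0.14, adjusted p = 1.26e-10). B cell markers were abundant in every library, with a summed level of 4128 to 4787 CPM in Spt5-depleted and 5011 to 5046 CPM in WT libraries, and all 8 were detected. Among them Cd22, an inhibitory receptor of B cells, was called lower (log2 fold change -1.48 ± 0.09, adjusted p = 5.62e-09), and 0 were called higher. The 9 detected macrophage and monocyte markers summed to 107.8, 187.5 and 146.0 CPM in Spt5-depleted libraries and to 77.6, 92.8 and 104 CPM in WT libraries. Most of each sum was Mpeg1, with 78.5, 124 and 95.9 CPM in Spt5-depleted and 53.5, 60.0 and 76.9 CPM in WT libraries. Of the 8 tested, 6 were called higher (75%, against 31.8% of all genes). The 7 detected T cell markers summed to 17.4 to 37.1 CPM in Spt5-depleted libraries and 42.55 to 43.7 CPM in WT libraries. Lck, the largest of them, had 12.1, 17.9 and 13.2 CPM in Spt5-depleted and 27.7, 28.2 and 24.5 CPM in WT libraries. Marker lists of NK, neutrophil, erythroid, dendritic, and stromal and endothelial cells each summed to at most 102.9 CPM in any library. Flt3 made up most of the dendritic sum and Pecam1 most of the stromal and endothelial sum. Of the dendritic markers Xcr1 (2.75) and Zbtb46 (0.66) were called higher, of the stromal and endothelial markers Acta2 (2.60) and Cdh5 (0.99) higher and Pecam1 (-0.63) lower, and of the NK markers Gzma (-0.95) lower, these values being log2 fold changes. The part of other cells in the results on p53 genes was not tested, and in bulk RNA fewer cells of a type and less RNA per cell cannot be told apart. The groups also differed in sex-linked transcripts: Xist had 86 counts over the Spt5-depleted libraries and 46341 over the WT libraries, and the Y-linked gene Ddx3y had 2569 and 1. Xist had at most 40 counts in any Spt5-depleted library and at least 11367 in any WT library. Ddx3y and the further Y-linked genes Eif2s3y, Uty and Kdm5d had at most 2 counts in any WT library. By these transcripts, the Spt5-depleted libraries came from male cells and the WT libraries from female cells. Sex and genotype were thus fully confounded, and their effects cannot be told apart.

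The promoters of the p53 genes show where binding sites of p53 itself would lie close to the start of transcription. RefSeq promoters (GRCm38.p6; 250 bases before to 50 after each annotated start) were found for 31 of the 39 genes, while the counts refer to build mm9. They were searched for the p53 response element, a pair of p53 decamers of 10 bases each, up to 13 bases apart, with at most 3 mismatches to the consensus in 20 bases and the core of each decamer intact. The 8 genes without a promoter were not searched: Tnfrsf10b, Trp53inp1, Zmat3, Rrm2b, Perp, Xpc, Ddb2 and Pvt1. Of these, Tnfrsf10b, Trp53inp1, Zmat3 and Rrm2b were called higher, so the search leaves out both genes called at least 2-fold. The element was found in 7 of 31 genes of the set (22.6%), against 2061 of 27025 genes with a RefSeq promoter (7.63%). Some genes had several promoters, and by promoter it was found in 8 of 45, against 2207 of 32851 (6.72%). Trp53 and Wrap53 share an element, and that of Aen lies in both of its promoters, so these are counted more than once. Cdkn1a, Gtse1, Sesn1, Mdm4 and Wrap53 each also had a promoter in which no element was found. Counts by gene do not tell which promoter was in use. Of the 7 genes, Cdkn1a, Gtse1 and Sesn1 were called higher, Mdm4 and Wrap53 were called lower, and Trp53 and Aen were not called. The sequences printed here are those of the called genes and of Trp53, whose element is also that of Wrap53. Capitals mark the decamers of the pair with the fewest mismatches, 5′ to 3′ on the strand of the gene, with 10 bases on each side.
Cdkn1a: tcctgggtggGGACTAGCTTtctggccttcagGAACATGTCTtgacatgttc
Gtse1: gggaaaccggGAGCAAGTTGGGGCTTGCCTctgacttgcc
Sesn1: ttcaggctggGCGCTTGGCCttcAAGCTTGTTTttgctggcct
Mdm4: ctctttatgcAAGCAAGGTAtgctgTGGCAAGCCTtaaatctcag
Trp53: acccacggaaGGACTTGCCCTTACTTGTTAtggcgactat
The coordinates are those of the printed stretch, flanks included. The marked Cdkn1a pair (within chr17:29090896-29090947, plus strand) had 0 mismatches and a spacer of 12 bases. The 10 bases printed after its second decamer also form a decamer, with 1 mismatch. That second decamer and these bases thus make another matching pair, with no spacer. Gtse1 (within chr15:85859935-85859974, plus strand) had 1 mismatch and no spacer, and Sesn1 (within chr10:41887243-41887285, plus strand) had 2 mismatches and a spacer of 3 bases. The Mdm4 element (within chr1:133025616-133025660, minus strand) had 3 mismatches and a spacer of 5 bases. The element of Trp53 (within chr11:69580274-69580313, plus strand) had 3 mismatches, and the divergent neighbour Wrap53 reads the same bases on the minus strand. Genes with an element thus lay in all 3 classes of call. A match describes the letters in this window and is neither a shown binding site nor a cause, and elements in introns or farther away were outside the window. TATAAA, on either strand, was found in 3 of 31 genes (9.68%, against 15.7% of all genes), and CCAAT, on either strand, in 14 of 31 (45.2%, against 41.1%).

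Spt5-depleted cells showed changes in both directions in the p53 pathway, and 16 of the 18 called were under 2-fold. Of the 38 tested genes 13 rose (34.2%), 5 fell (13.2%) and 20 were not called. Over all 12024 genes, 31.8% were called higher, 30.6% lower and 62.4% in either direction, so the share that rose was near the background and the 47.4% called in either direction lay below it. The median log2 fold change of the 38 genes was 0.14, against 0.00 for all genes, and the changes ran from -0.77 for Gadd45a to 1.23 for Trp53inp1. A positive log2 fold change was found in 26 of 38 (68.4%), against 50.4% of all genes. Called changes of at least 2-fold were limited to Tnfrsf10b and Trp53inp1, both higher, against 9.87% of all genes called at least 2-fold higher and 7.63% called at least 2-fold lower. In 14 of 38 every Spt5-depleted library lay above every WT library and in 7 every one lay below, against 34.2% and 33.3% of all genes, and 67.5% in either direction.

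**Figure D1:**
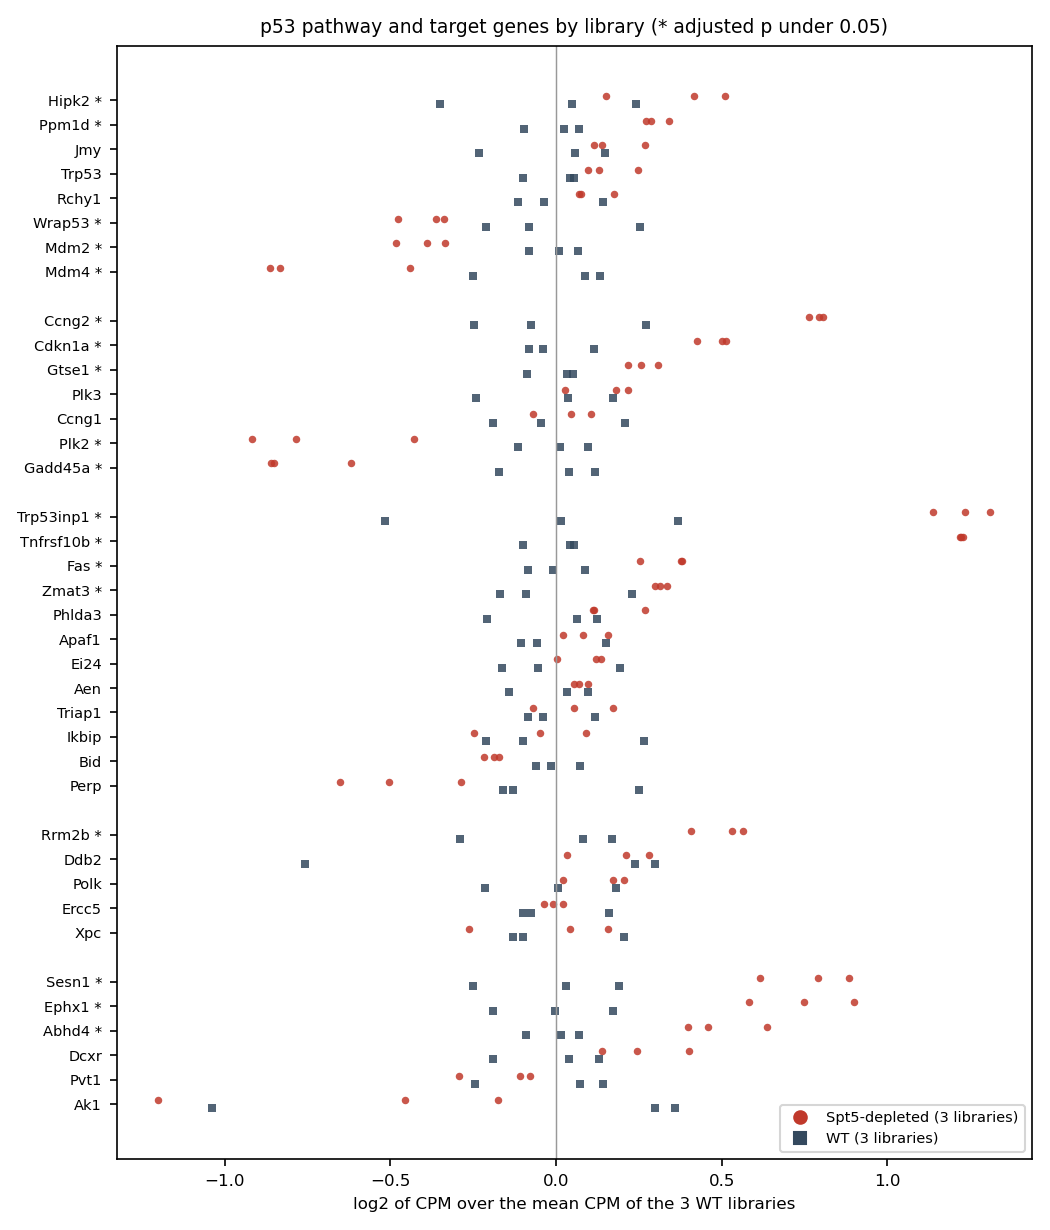
Level of the 38 tested p53 genes in each library, as the log2 of its CPM over the mean CPM of the 3 WT libraries (x axis), with a point per library and the Spt5-depleted libraries above the WT libraries in each gene's row. Genes are ordered by role and an asterisk marks an adjusted p under 0.05, and the points of Tnfrsf10b and Trp53inp1 lie farthest to the right in Spt5-depleted cells.

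These counts depended on how libraries were scaled. With library totals alone, without TMM factors, the median of all genes stood at 0.16, and relative to that shift the median of the 38 genes, 0.30, lay as far above it as under TMM. On that scale 22 of the 38 were called higher and 4 lower, against 41.3% and 22.4% of all genes. The 9 genes that gained a call were Trp53, Rchy1, Jmy, Plk3, Apaf1, Ei24, Phlda3, Polk and Dcxr, all higher, and Wrap53 lost its call. The sign of 4 uncalled genes, Ikbip, Xpc, Ercc5 and Pvt1, changed, and that of every called gene stayed.

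**Figure D2:**
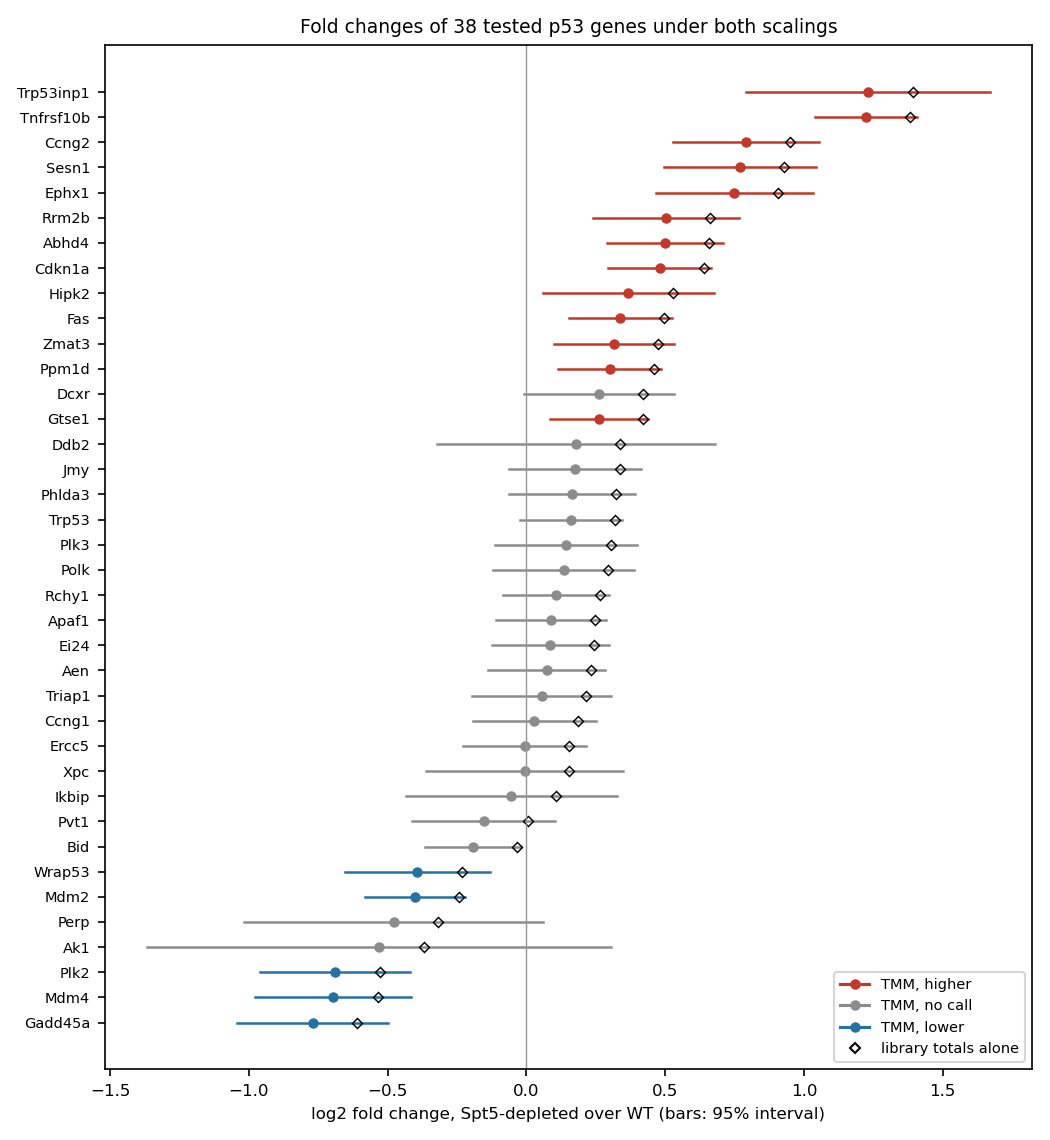
Log2 fold change of Spt5-depleted over WT cells for the 38 tested genes, in falling order, with bars for the 95% confidence interval and colours for the call. Open diamonds give the log2 fold change with library totals alone, which lies to the right of the TMM value. The called TMM values run from -0.77 for Gadd45a to 1.23 for Trp53inp1, and 20 genes were not called.

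Among p53 and its regulators, Trp53 RNA was not called different, while the transcripts of both of its main inhibitors, Mdm2 and Mdm4, were lower in Spt5-depleted cells. Of the 8 genes of this group 2 rose (25%, against 31.8% of all genes), 3 fell (37.5%, against 30.6%) and 3 were not called. Trp53 had 430.5, 388 and 397 CPM in the Spt5-depleted libraries and 373, 338 and 376 CPM in the WT libraries (log2 fold change 0.16 ± 0.09, adjusted p = 0.116). Every Spt5-depleted library lay above every WT library, and the 95% interval of the log2 fold change was -0.02 to 0.34. With library totals alone Trp53 was called higher (0.32, adjusted p = 0.00393), and its adjusted p over the 13 alternatives ran from 0.00393 to 0.357. Mdm2 had 126, 114 and 121 CPM in Spt5-depleted cells, against 160.0, 166 and 150.3 CPM in WT cells (log2 fold change -0.40 ± 0.08, adjusted p = 0.000793). All 3 Spt5-depleted libraries were below all 3 WT libraries. Mdm4, which binds p53 and blocks its activity, had 37.3, 38.1 and 50.002 CPM in the Spt5-depleted libraries and 74.4, 72.1 and 57.1 CPM in the WT libraries (log2 fold change -0.70 ± 0.13, adjusted p = 0.000415). The groups did not overlap, although Spt5-depleted replicate 3 and WT replicate 3 lay closest to each other. Wrap53, the divergent neighbour of Trp53, which encodes a protein of telomerase and Cajal bodies, also fell, with 18.4 ± 0.933 CPM in Spt5-depleted and 24.2 ± 4.12 CPM in WT cells (SD, n = 3 each; log2 fold change -0.39 ± 0.12, adjusted p = 0.0117). Its call was lost without Spt5-depleted replicate 2 (adjusted p = 0.0525) and when only library totals were used (-0.23, adjusted p = 0.114), and its range over the 13 alternatives was 0.00393 to 0.114. The strand setting of the counting is not given, so reads from any overlap of Trp53 and Wrap53 cannot be told apart.

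The 2 genes of this group that rose encode a phosphatase and a kinase. Ppm1d, the phosphatase Wip1 that switches p53 signalling off and is itself a p53 target, had 62.1, 59.2 and 59.7 CPM in Spt5-depleted cells, against 45.8, 51.3 and 49.8 CPM in WT cells (log2 fold change 0.30 ± 0.09, adjusted p = 0.00737). Its groups did not overlap. Hipk2, a kinase that phosphorylates p53 and favours apoptosis, had 95.4, 79.3 and 102 CPM in the Spt5-depleted libraries and 84.4, 73.9 and 56.1 CPM in the WT libraries (log2 fold change 0.37 ± 0.14, adjusted p = 0.0389). Its groups overlapped, and the call was lost without Spt5-depleted replicate 1 or 3 (adjusted p = 0.109 and 0.15) and without WT replicate 2 or 3 (adjusted p = 0.0595 and 0.0922; 0.0065 to 0.15 over the 13 alternatives). Rchy1, the p53 ubiquitin ligase Pirh2, stood at 0.11 with a 95% interval of -0.09 to 0.30. Jmy, a p53 cofactor that also nucleates actin, stood at 0.18 (95% interval -0.06 to 0.41), and neither was called. Rchy1 is 1 of 5 genes of the set, with Ddb2, Zmat3, Plk3 and Gadd45a, whose name carries a suffix that the labels do not define. From its letters it was read as marking overlap with another gene, in which case these counts may hold reads of that gene. Without these 5, 12 of 33 tested genes rose (36.4%) and 4 fell (12.1%), against 31.8% and 30.6% of all genes.

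Counts of a gene per 100 Trp53 counts within a library do not depend on the scaling between libraries. Mdm2 had 29.3, 29.3 and 30.6 counts per 100 Trp53 counts in Spt5-depleted cells and 42.9, 49.2 and 39.9 in WT cells. For Mdm4 these were 8.66, 9.83 and 12.6 in Spt5-depleted cells and 19.9, 21.3 and 15.2 in WT cells. Both inhibitors were thus lower relative to Trp53 in every Spt5-depleted library than in any WT library. Ppm1d had 14.4, 15.3 and 15.1 counts per 100 Trp53 counts in Spt5-depleted cells and 12.3, 15.2 and 13.2 in WT cells, and its groups overlapped. Cdkn1a had 22.8, 25.5 and 23.5 in Spt5-depleted cells and 17.5, 19.9 and 19.9 in WT cells. Tnfrsf10b had 22.5, 24.8 and 24.2 in Spt5-depleted cells and 11.5, 12.6 and 10.2 in WT cells. Both targets, which also rose in CPM, were higher relative to Trp53 in every Spt5-depleted library. These ratios were not tested, and none was taken for the other targets, among them Gadd45a and Plk2, which fell.

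**Figure D3:**
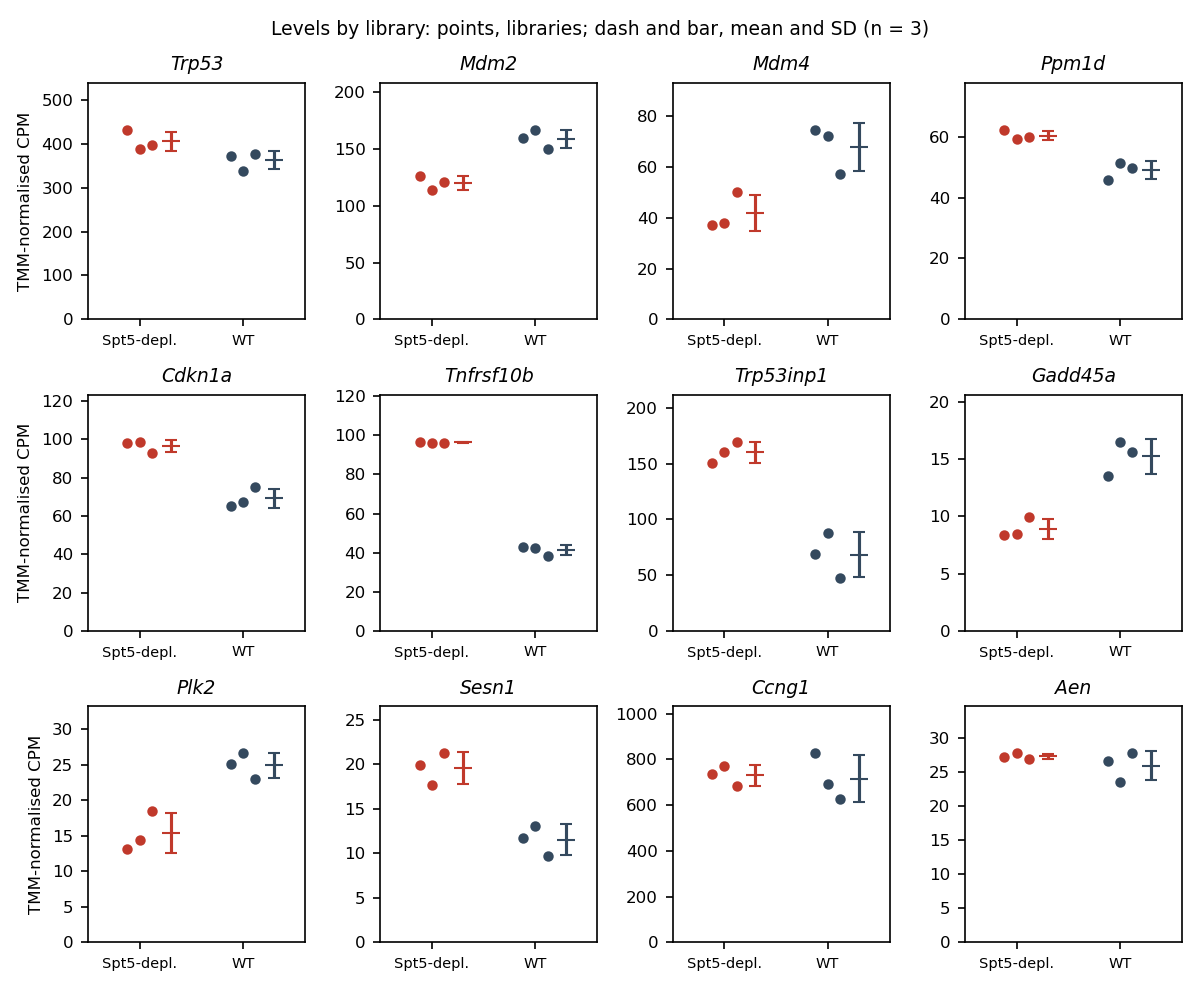
CPM of 12 p53 genes in each library (y axis, from 0), with a point per library, a dash for the mean and a bar for the SD of 3 libraries, Spt5-depleted to the left of WT. Mdm2 and Mdm4 sit lower and Cdkn1a and Tnfrsf10b higher in all Spt5-depleted libraries than in any WT library.

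Among genes of cell cycle arrest and the stress kinases, 3 of 7 rose (42.9%), 2 fell (28.6%) and 2 were not called. Over all genes these shares were 31.8% higher and 30.6% lower. Cdkn1a encodes p21, the inhibitor of cyclin-dependent kinases through which p53 arrests the cell cycle. It had 98.1, 98.8 and 93.1 CPM in the Spt5-depleted libraries and 65.4, 67.4 and 74.9 CPM in the WT libraries (log2 fold change 0.48 ± 0.09, adjusted p = 0.000221). The Spt5-depleted libraries lay above all WT libraries, and it was called in each of the 13 alternatives (adjusted p from 3.34e-06 to 0.00241). Ccng2, an atypical cyclin linked to arrest, had 29.9, 29.6 and 29.1 CPM in Spt5-depleted cells, against 16.2, 20.7 and 14.4 CPM in WT cells (log2 fold change 0.79 ± 0.12, adjusted p = 6.06e-05). Its groups did not overlap, and the Spt5-depleted libraries lay within 1 CPM of one another. Its paralog Ccng1, a direct p53 target, had 738, 771 and 682 CPM in the Spt5-depleted libraries and 827, 693 and 627 CPM in the WT libraries (log2 fold change 0.03 ± 0.10, adjusted p = 0.823). The groups of Ccng1 overlapped, and the interval of its log2 fold change was -0.19 to 0.25. Gtse1, a microtubule-associated protein of G2 that takes p53 out of the nucleus, had 134 ± 4.27 CPM in Spt5-depleted and 112 ± 5.77 CPM in WT cells (SD, n = 3 each; log2 fold change 0.26 ± 0.08, adjusted p = 0.0129). Its call was lost without Spt5-depleted replicate 1 (adjusted p = 0.0616) and without WT replicate 2 (adjusted p = 0.0584; 0.000497 to 0.0616 over the 13 alternatives).

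The genes of this group that fell were Plk2 and Gadd45a. Gadd45a, a stress sensor that acts on stress kinases and in DNA repair, had 8.37, 8.43 and 9.91 CPM in the Spt5-depleted libraries and 13.5, 16.5 and 15.6 CPM in the WT libraries (log2 fold change -0.77 ± 0.13, adjusted p = 0.000104). All Spt5-depleted libraries were below all WT libraries, in contrast to Cdkn1a. Plk2, a polo-like kinase induced by p53, had 13.2, 14.5 and 18.5 CPM in Spt5-depleted cells, against 25.1, 26.6 and 23.0 CPM in WT cells (log2 fold change -0.69 ± 0.13, adjusted p = 0.000262), again without overlap. Plk3, a related stress kinase, was not called, at 0.14 with an interval of -0.11 to 0.40. Within this group, the changes therefore ran in both directions, from -0.77 for Gadd45a to 0.79 for Ccng2.

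Among death receptors and apoptosis genes 4 of 12 rose (33.3%, against 31.8% of all genes), 0 fell (against 30.6%) and 8 were not called. The 2 largest increases of the whole set were here. Tnfrsf10b, the mouse TRAIL death receptor DR5, had 96.7, 96.3 and 96.2 CPM in the Spt5-depleted libraries and 42.9, 42.5 and 38.5 CPM in the WT libraries (log2 fold change 1.22 ± 0.09, adjusted p = 2.25e-08). The groups lay far apart, and the Spt5-depleted libraries differed by less than 1 CPM. Trp53inp1, a stress protein that promotes p53-dependent death and autophagy, had 150.4, 161 and 169 CPM in Spt5-depleted cells, against 69.0, 88.2 and 47.7 CPM in WT cells (log2 fold change 1.23 ± 0.19, adjusted p = 0.000541). Its groups did not overlap, but the WT libraries were widely spread. Fas, the receptor for Fas ligand, which removes activated lymphocytes, had 87.6, 87.5 and 80.3 CPM in the Spt5-depleted libraries and 63.5, 71.5 and 66.9 CPM in the WT libraries (log2 fold change 0.34 ± 0.09, adjusted p = 0.00339). Zmat3, an RNA-binding zinc finger protein induced by p53, had 194 ± 2.37 CPM in Spt5-depleted and 156 ± 23.4 CPM in WT cells (SD, n = 3 each; log2 fold change 0.31 ± 0.10, adjusted p = 0.0137). The groups of both genes did not overlap. The Zmat3 call was lost without Spt5-depleted replicate 2 (adjusted p = 0.0529) and without WT replicate 2 (adjusted p = 0.0556; 0.000464 to 0.0556 over the 13 alternatives).

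The other 8 genes of this group were not called. Bid, which carries the death receptor signal to mitochondria, had 112, 108 and 111 CPM in Spt5-depleted cells, against 121, 125 and 132 CPM in WT cells (log2 fold change -0.19 ± 0.08, adjusted p = 0.0511). All Spt5-depleted libraries were below all WT libraries, and Bid was called lower with DESeq2's size factors (adjusted p = 0.0457), with DESeq2's Wald test (adjusted p = 0.0414) and without WT replicate 1 (adjusted p = 0.0316; 0.0316 to 0.736 over the 13 alternatives). Apaf1, the scaffold of the apoptosome, stood at 0.09 with a 95% interval of -0.11 to 0.29. Ei24, an endoplasmic reticulum protein induced by p53, stood at 0.09 with an interval of -0.12 to 0.30. Perp, a membrane protein that takes part in p53-dependent death, was low, with 1.32 ± 0.1698 CPM in Spt5-depleted and 1.84 ± 0.304 CPM in WT cells and an interval of -1.02 to 0.06, and its groups did not overlap. Aen, a nuclease of apoptosis, had 27.3 ± 0.388 CPM in Spt5-depleted and 25.9 ± 2.17 CPM in WT cells (SD, n = 3 each; 95% interval -0.14 to 0.28). Phlda3, which blocks Akt, stood at 0.16 (interval -0.06 to 0.39), and Triap1, a mitochondrial lipid transfer protein that protects from death, at 0.05 (interval -0.20 to 0.31). Ikbip, a p53 target first described as promoting apoptosis, stood at -0.05 (interval -0.43 to 0.32). For these 8 genes the intervals bound the change and do not show that the levels were equal.

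Among the 5 genes of DNA repair and nucleotide supply, 1 (20%), Rrm2b, rose, against 31.8% of all genes, and 4 were not called. Rrm2b encodes the p53-inducible small subunit of ribonucleotide reductase, which supplies nucleotides for repair. It had 23.8, 23.2 and 21.3 CPM in the Spt5-depleted libraries and 17.01, 18.1 and 13.2 CPM in the WT libraries (log2 fold change 0.50 ± 0.12, adjusted p = 0.0025), and every Spt5-depleted library was above every WT library. Of the damage recognition factors of nucleotide excision repair, Xpc had 5.92 ± 0.862 CPM in Spt5-depleted and 5.96 ± 0.792 CPM in WT cells (SD, n = 3 each; 95% interval -0.36 to 0.35). Ddb2 had 7.09, 7.44 and 6.27 CPM in Spt5-depleted cells, against 3.62, 7.22 and 7.53 CPM in WT cells (interval -0.32 to 0.68). WT replicate 1 lay well below the other libraries, and without it the log2 fold change of Ddb2 was -0.10, against 0.18 with it. Ercc5, the nuclease XPG of the same pathway, stood at -0.01 (interval -0.23 to 0.22), and Polk, a polymerase that copies past damaged bases, at 0.13 (interval -0.12 to 0.39).

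Among metabolic, secreted and noncoding targets 3 of 6 tested genes rose (50%), 0 fell and 3 were not called. Of all tested genes, 31.8% were called higher and 30.6% lower. Sesn1, a sestrin that restrains mTORC1, had 19.9, 17.6 and 21.2 CPM in the Spt5-depleted libraries and 11.7, 13.1 and 9.67 CPM in the WT libraries (log2 fold change 0.77 ± 0.13, adjusted p = 0.000117). Ephx1, an epoxide hydrolase of detoxification, had 17.1, 13.7 and 15.4 CPM in Spt5-depleted cells, against 9.13, 10.3 and 8.03 CPM in WT cells (log2 fold change 0.75 ± 0.13, adjusted p = 0.000181). Abhd4, a lipase of N-acyl phospholipids, had 43.5 ± 3.78 CPM in Spt5-depleted and 30.7 ± 1.72 CPM in WT cells (SD, n = 3 each; log2 fold change 0.50 ± 0.10, adjusted p = 0.000425). In all 3 genes the groups did not overlap. Dcxr, a carbonyl reductase, had 15.2, 13.6 and 12.7 CPM in the Spt5-depleted libraries and 11.8, 10.1 and 12.6 CPM in the WT libraries and was not called (log2 fold change 0.26 ± 0.13, adjusted p = 0.0831). Its groups did not overlap either, and it was called without WT replicate 3 (adjusted p = 0.0442) and when only library totals were used (0.42, adjusted p = 0.00869; 0.00869 to 0.283 over the 13 alternatives). Ak1, an adenylate kinase, was low in both groups, with 0.701 ± 0.235 CPM in Spt5-depleted and 1.03 ± 0.457 CPM in WT cells (SD, n = 3 each; interval -1.37 to 0.31). Pvt1, a noncoding RNA gene beside Myc with a p53 site described in mouse and human, stood at -0.15 (interval -0.41 to 0.10). Gdf15, a secreted stress cytokine, had 2, 4 and 4 counts in the Spt5-depleted libraries and 3, 16 and 10 counts in the WT libraries, and was removed by the filter on low counts.

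**Figure D4:**
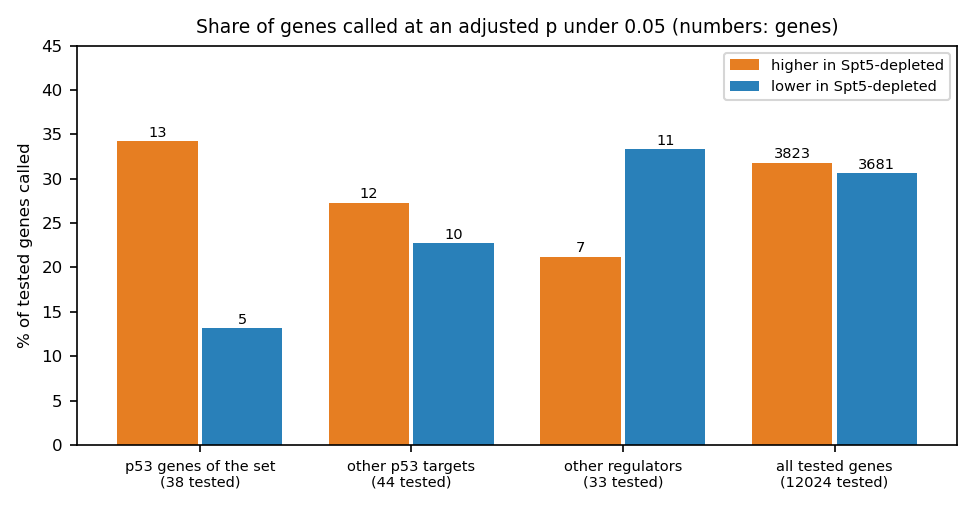
Share of tested genes, in percent, called higher (orange) and lower (blue) in Spt5-depleted over WT cells, with the number of genes over each bar, for the p53 genes, the other p53 targets, the other p53 regulators and all tested genes. The p53 genes have 34.2% higher and 13.2% lower, and all genes 31.8% higher and 30.6% lower.

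Most p53 genes varied less between replicates in Spt5-depleted cells than in WT cells. The coefficient of variation over 3 libraries was smaller in Spt5-depleted cells for 32 of 38 genes (84.2%), against 64.5% of all tested genes. Its median over the 38 genes was 6.06% in Spt5-depleted cells and 12.7% in WT cells, and over all genes 7.33% in Spt5-depleted cells and 10.5% in WT cells. These shares are a description of 3 libraries a group and were not tested.

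Further p53 targets outside the set were called in both directions in similar numbers. Of 48 listed, 44 were tested, of which 12 rose (27.3%, against 31.8% of all genes) and 10 fell (22.7%, against 30.6%). Their median log2 fold change was -0.03. Btg2, an antiproliferative gene, had 153 ± 7.93 CPM in Spt5-depleted and 41.0 ± 5.63 CPM in WT cells (SD, n = 3 each; log2 fold change 1.91 ± 0.10, adjusted p = 2.01e-09). Tlr3, a receptor for double-stranded RNA, had 15.0 ± 1.89 CPM in Spt5-depleted and 3.04 ± 0.277 CPM in WT cells (log2 fold change 2.30 ± 0.15, adjusted p = 1.10e-08). Blcap rose with 55.8 ± 4.19 CPM in Spt5-depleted and 22.4 ± 1.68 CPM in WT cells (log2 fold change 1.31 ± 0.10, adjusted p = 4.79e-08), and Foxo3, a transcription factor of stress and quiescence, with 28.8 ± 1.98 CPM in Spt5-depleted and 14.9 ± 1.87 CPM in WT cells (log2 fold change 0.95 ± 0.11, adjusted p = 5.15e-06). Those 4 were the genes of the list with the smallest p among those that rose. Sesn2, the paralog of Sesn1, moved the opposite way from it, with 21.6 ± 1.35 CPM in Spt5-depleted and 44.2 ± 1.62 CPM in WT cells (log2 fold change -1.03 ± 0.09, adjusted p = 3.47e-07). Pml, the scaffold of PML nuclear bodies in which p53 is modified, had 336 ± 18.6 CPM in Spt5-depleted and 481 ± 14.2 CPM in WT cells (log2 fold change -0.52 ± 0.08, adjusted p = 7.48e-05). Gls2, a mitochondrial glutaminase, had 0.346 ± 0.122 CPM in Spt5-depleted and 1.199 ± 0.245 CPM in WT cells (log2 fold change -1.75 ± 0.37, adjusted p = 0.00078), and Slc12a4, an ion cotransporter, had 5.99 ± 0.504 CPM in Spt5-depleted and 11.1 ± 0.404 CPM in WT cells (log2 fold change -0.89 ± 0.13, adjusted p = 3.68e-05), both with an overlap suffix. Of 3 apoptosis genes picked after their values were seen, Pmaip1, which encodes Noxa, rose, with 135 ± 11.5 CPM in Spt5-depleted and 80.9 ± 8.09 CPM in WT cells (log2 fold change 0.74 ± 0.10, adjusted p = 1.24e-05). The other two, Bax (-0.19, adjusted p = 0.0934) and Bbc3 (0.07, adjusted p = 0.693), were not called.

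Among enzymes that modify p53, the acetyltransferase Kat5 and the deubiquitinase Usp7 fell. Of 33 tested regulators and cofactors outside the set 7 rose (21.2%, against 31.8% of all genes) and 11 fell (33.3%, against 30.6%). Their median log2 fold change was -0.02. Without Spt5-depleted replicate 3, 4 rose. Kat5, the acetyltransferase Tip60 that acetylates p53, had 22.0 ± 1.71 CPM in Spt5-depleted and 60.6 ± 6.38 CPM in WT cells (SD, n = 3 each; log2 fold change -1.46 ± 0.10, adjusted p = 2.96e-08). Usp7, which removes ubiquitin from Mdm2 and p53, had 247 ± 17.5 CPM in Spt5-depleted and 476 ± 49.1 CPM in WT cells (log2 fold change -0.95 ± 0.10, adjusted p = 9.20e-07). The methyltransferases Prmt5 (-0.98, adjusted p = 7.26e-07) and Smyd2 (-1.07, adjusted p = 1.16e-06) also fell. Setd7, another methyltransferase of p53, rose, with 124 ± 4.82 CPM in Spt5-depleted and 71.3 ± 7.49 CPM in WT cells (log2 fold change 0.80 ± 0.09, adjusted p = 3.92e-06). Topors, a ubiquitin and SUMO ligase whose name carries an overlap suffix (0.67, adjusted p = 7.62e-06), the deacetylase Sirt1 (0.49, adjusted p = 0.0002) and the p53 cofactor Ppp1r13b (0.34, adjusted p = 0.00385) rose as well. With library totals alone 16 of the other targets were higher and 7 lower, and 13 of the other regulators were higher and 10 lower. On that scale 41.3% of all genes were higher and 22.4% lower.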

How the data were processed

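RNA-seq of 3 Spt5-depleted and 3 WT libraries was analysed, and 18 samples of other assays were not analysed here. Poly(A) RNA was made into libraries with the Lexogen SENSE kit, per the labels' protocols. The authors deposited raw gene counts with their own log2 fold changes and p-values, per the file headers. The submitters' processing notes name featureCounts 1.5.0-p1, TopHat, Bowtie2 2.1.0, cutadapt 1.10, mm9 and DESeq2 1.10.1. Annotation, strand setting, treatment of multiply mapped reads and tool roles were not given in the sources used here. Counts were present for 14106 genes with at least 10 in total. Of these, 2005 names carried a suffix, read from its letters as marking overlap with another gene.

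Genes were filtered with filterByExpr, which left 12024, scaled by TMM and tested with edgeR 4.0.16 (R 4.3.3; quasi-likelihood test, no covariate, Benjamini-Hochberg adjustment over all tested genes, threshold 0.05). The scripts were tested on simulated data. Samples were grouped by the genotype in the labels. Without spike-ins, a change in total RNA per cell cannot be seen. Within a group, libraries differed beyond sampling noise, so none was merged. The chi-square per degree of freedom was 6.45 to 10.8 between Spt5-depleted libraries and 28 to 33.2 between WT libraries. Alternatives were DESeq2 1.42.0 size factors and Wald test, limma 3.58.1 voom, library totals, other filters, the replicate number as a block, and each library left out. Beyond the set, the genes named were, in each further p53 list, the 4 that rose and the 4 that fell with the smallest p, and Bax, Bbc3 and Pmaip1, picked after their values were seen. Members and lists were chosen with earlier results of these data known.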

Additional observations from a re-analysis of the deposited data

How the results depend on the processing

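Every called p53 gene kept its sign under the 13 alternatives. Among uncalled genes, Ccng1, Triap1, Ikbip, Xpc, Ddb2, Ercc5 and Pvt1 changed sign in at least 1 alternative. All genes gave 3823 higher and 3681 lower calls, and with library totals alone 4961 and 2694, the 1 alternative that moved this split by over 10 percentage points. On that scale 22 p53 genes were higher, against 13, and 13 of the other regulators higher and 10 lower, against 7 and 11. With a mean of at least 5 CPM all genes gave 2995 and 2997. Under the same filter 6 of the other p53 targets were lower, against 10, as fewer genes were tested. Leaving out each library gave 10 to 13 p53 genes higher and 4 to 6 lower, and 4 to 8 of the other regulators higher. The cause of the other shifts was not tested. Same-numbered libraries of the groups deviated with correlations of 0.038, -0.040 and -0.005. The labels do not say whether the numbers pair libraries, and so few libraries cannot exclude a weak pairing. With the replicate number as a block, 13 p53 genes were higher and 5 lower, with 3755 and 3614 over all genes, and 0 calls among the p53 genes changed. DESeq2's Wald test gave 13 and 6 p53 genes. Gdf15 was removed by the filter on low counts, and the test with no filter took in all 39 p53 genes, with 13 higher and 5 lower.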

Other observations

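By the authors' deposited table, 13 of the 39 p53 genes were higher and 6 lower at an adjusted p under 0.05. The 1 lower gene beyond those called here was Bid, at a log2 fold change of -0.20 (adjusted p = 0.0425 in the authors' deposited table).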
